A study of Rattus norvegicus with 65 samples.

Results

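Voltage-gated sodium and calcium channel genes were taken from the count table of rat hypothalamus by symbol. They are the protein-coding genes named Scn plus a number plus a or b, and those starting with Cacna1, Cacna2d, Cacnb or Cacng. The rule found 40 of 22926 protein-coding genes, in a table of 38513 genes. RNA was sequenced from 65 male Wistar rats, 1 library per animal, aged 9 to 10 weeks when the study began. The rats had been given a high-fat diet (60% of calories from fat) for 6 weeks, apart from lean controls, and hypothalami were taken 4 weeks after the intervention and 10 hours of fasting.

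RYGB-treated animals (n = 14, labelled Bypass) had Roux-en-Y gastric bypass surgery, and sham-treated animals (n = 11) the sham operation. BWM animals (n = 7) were body-weight-matched to the RYGB group by food restriction, and the abstract of the paper lists them as sham-operated too. Saline animals (n = 8) received saline only. Liraglutide, an agonist of the receptor for the gut hormone GLP-1, was injected at 0.4 mg/kg/day (n = 5, labelled Lira). PYY3-36, a gut hormone fragment, was infused by osmotic minipump at 0.1 mg/kg/day (n = 4, labelled PYY), and both agents were combined in 10 animals (labelled PYY_Lira). Lean animals (n = 6) were taken to be those kept on the low-fat diet only, which the labels do not state. Experiments were run in 2 periods, labelled batch A (37 animals) and batch B (28 animals). BWM and lean animals were in batch A only, and liraglutide and PYY3-36 animals in batch B only.

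Sodium channels carry the rising phase of the action potential. Each has a pore-forming alpha subunit, and beta subunits that steer its gating and its place in the membrane. Calcium channels open when the membrane is depolarized and let in the calcium that drives transmitter and hormone release, burst firing and gene regulation. Their pore-forming subunit gives the current its type (L, P/Q, N, R or T). Alpha2delta and beta subunits bring the pore to the cell surface. Several of the genes named gamma encode accessory subunits of AMPA-type glutamate receptors. Hypothalamic neurons that secrete peptides use these channels to time their firing and release.

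Many of the genes lie near each other in the genome, though other genes can lie between them. In the build Rnor_6.0 of the count table, Scn3a, Scn2a, Scn1a, Scn9a and Scn7a lie in this order on chromosome 3, from base 51530897 to base 52877365. Scn2a ends at base 51822008 and Scn1a starts at base 52388811. Scn10a and Scn11a lie close together on chromosome 8, as do Scn2b and Scn4b. Cacng6, Cacng8 and Cacng7 do so on chromosome 1, and Cacng1, Cacng4 and Cacng5 on chromosome 10.

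Promoter windows are shown for members on which the results below turn, 250 bases upstream of the annotated start. They come from RefSeq on the build GRCr8 and are printed 5′ to 3′ in the direction of the gene. Capitals mark GGGCGG or, for the other strand, CCGCCC, the core of a GC box. Cacna1d and Cacna1b differed between the batches, Cacng6 between RYGB and BWM, and Scn4b varied widely between libraries. The windows are chr16:5527550-5527799 (minus strand) for Cacna1d, chr3:27944286-27944535 (minus) for Cacna1b, chr1:74662754-74663003 (minus) for Cacng6 and chr8:54343623-54343872 (plus) for Scn4b.
Cacna1d: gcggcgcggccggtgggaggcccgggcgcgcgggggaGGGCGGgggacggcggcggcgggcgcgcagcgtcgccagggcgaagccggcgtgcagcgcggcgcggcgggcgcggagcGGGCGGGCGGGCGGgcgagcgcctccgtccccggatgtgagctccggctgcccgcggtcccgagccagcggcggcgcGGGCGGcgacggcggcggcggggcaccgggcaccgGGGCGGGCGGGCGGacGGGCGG
Cacna1b: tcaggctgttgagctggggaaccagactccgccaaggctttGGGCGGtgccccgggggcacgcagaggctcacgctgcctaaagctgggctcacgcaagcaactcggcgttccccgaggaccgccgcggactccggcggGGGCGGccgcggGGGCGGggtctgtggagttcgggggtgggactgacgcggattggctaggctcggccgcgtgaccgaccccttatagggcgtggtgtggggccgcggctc
Cacng6: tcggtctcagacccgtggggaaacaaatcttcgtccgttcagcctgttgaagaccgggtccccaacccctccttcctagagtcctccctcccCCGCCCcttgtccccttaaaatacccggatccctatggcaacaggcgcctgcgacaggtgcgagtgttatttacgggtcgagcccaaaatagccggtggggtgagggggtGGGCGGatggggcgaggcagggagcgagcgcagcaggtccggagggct
Scn4b: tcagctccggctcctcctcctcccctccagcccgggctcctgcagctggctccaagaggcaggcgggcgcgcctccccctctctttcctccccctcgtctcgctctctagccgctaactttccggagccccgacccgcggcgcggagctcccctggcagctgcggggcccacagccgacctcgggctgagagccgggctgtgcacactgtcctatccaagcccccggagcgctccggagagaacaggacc
The window of Cacna1d held 9 matches, that of Cacna1b 3, that of Cacng6 2 and that of Scn4b 0, with overlapping matches counted separately and run together in the print. A window was found for 27 of the 40 members, and 13 of these 27 held the motif on either strand (48.1%), against 30.5% of 33469 windows of all genes. The median GC content was 63.0% in the members' windows and 51.2% in all windows. A match is a stretch of letters, and binding was not measured.

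Of the 40 members, 39 passed the filter on low counts. Cacng1, the gamma subunit of the skeletal muscle calcium channel, did not. It had a count in 37 libraries, never more than 26 counts, and between 0 and 1.35 CPM, the count relative to library size. Levels of different genes were compared as CPM per kilobase of exon, given as the mean ± SD of the 65 libraries.

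Auxiliary subunits were abundant. Cacng7, an accessory subunit of AMPA receptors, had 74.6 ± 16.5 CPM per kilobase. Lower levels were found for Scn2b (48.3 ± 12.5), Scn3b (43.7 ± 20.8) and Cacnb3 (42.1 ± 16.2 CPM per kilobase). The levels of Scn2b, Scn3b and Cacnb3, neighbours in order, differed by less than the SD of either gene. Cacnb3 was the leading calcium beta gene, and Cacna2d2, a target of gabapentin, the leading alpha2delta gene with 33.0 ± 11.8 CPM per kilobase.

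Among the pore genes, Scn2a led the sodium channels with 21.7 ± 5.05 CPM per kilobase. Its product carries sodium current in axons of excitatory neurons. Scn1a, known from inhibitory neurons, followed with 9.21 and Scn8a, which encodes the channel of the axon initial segment, with 7.04 CPM per kilobase. Among calcium pores, Cacna1g (T-type, 12.9 ± 5.88) and Cacna1e (R-type, 12.3 ± 4.14 CPM per kilobase) were highest and did not differ beyond their SD. Cacna1a (P/Q-type) had 11.03 and Cacna1b (N-type) 10.8 CPM per kilobase. The L-type genes were lower, at 4.06 ± 1.61 for Cacna1d, whose channel opens at low voltage and paces firing, and 3.16 ± 1.03 CPM per kilobase for Cacna1c. Counts were not whole in 100% of libraries for Scn1a, Scn3a and Scn9a and in 96.9% for Scn2a. The same held in 84.6% of libraries for the beta gene Scn2b, and in 0% for the sodium pore gene Scn7a. A single split read is enough to make a count not whole. How many reads were split, and with which genes they were shared, was not tested. How well reads of the similar sodium pore genes were told apart is therefore not known.

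Several genes best known from other organs stood at the bottom. Scn4a and Cacna1s, the pores of skeletal muscle, had 0.371 and 0.0737 CPM per kilobase. Cacna1f, the L-type pore of the retina, had 0.0949, and Scn10a and Scn11a, pores of sensory neurons, had 0.107 and 0.207 CPM per kilobase. Cacng6 had 0.498 ± 0.879 CPM per kilobase, an SD larger than its mean.

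**Figure D1:**
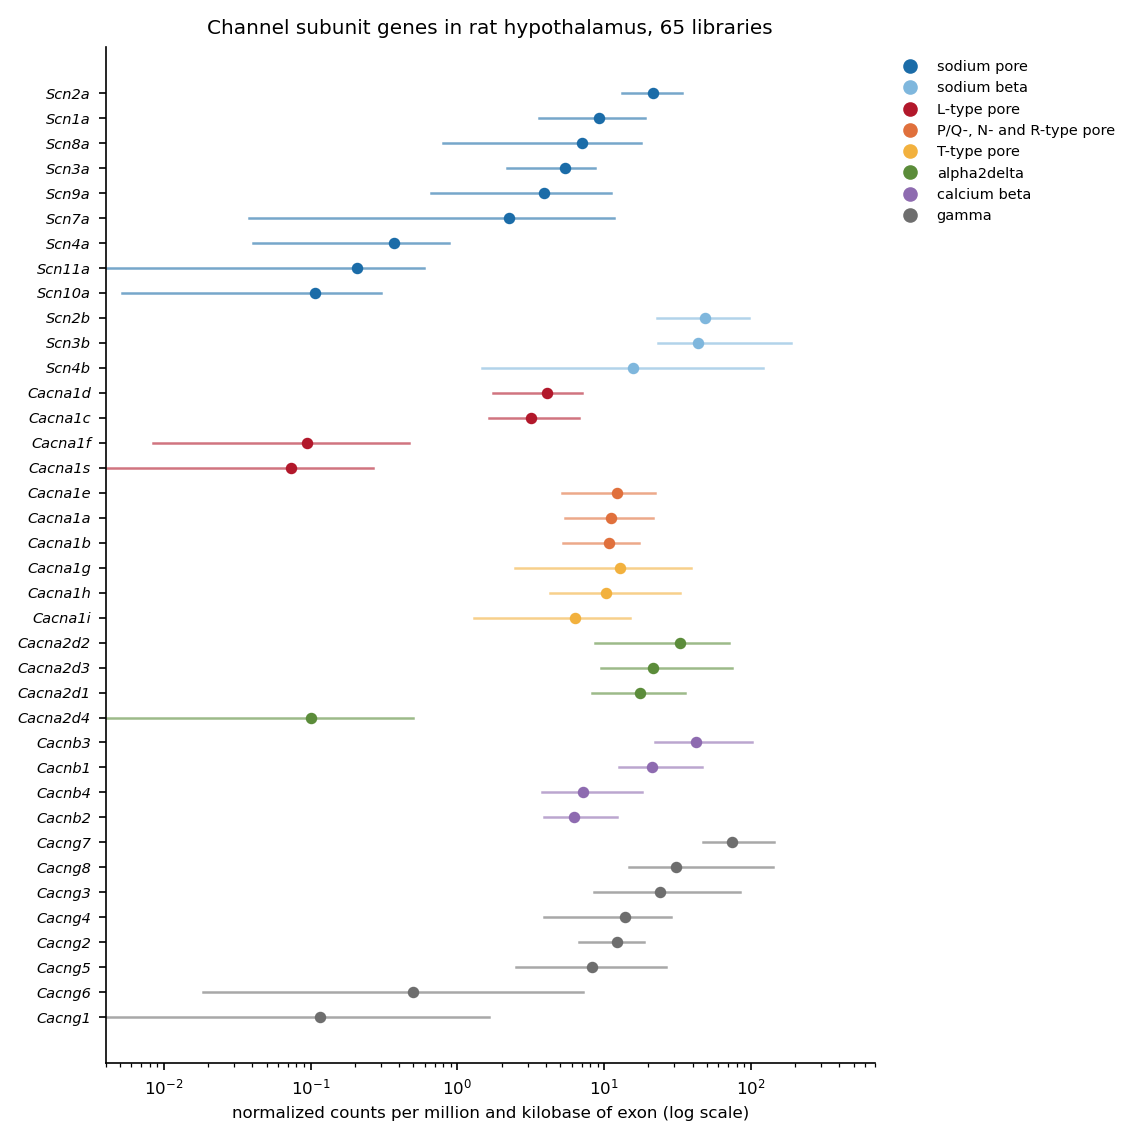
Normalized level of 38 of the 40 channel genes in CPM per kilobase of exon, on a log axis, grouped by role. Points are means of 65 libraries and lines run from the lowest to the highest library, reaching the left edge where a library was at 0. Of the genes drawn, Cacng7 (74.6) was highest and Cacna1s (0.0737) lowest.

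Marker levels of hypothalamus and of other tissues differed widely between libraries. The labelled hypothalamus was checked with 12 genes of hypothalamic peptides and regulators, among them Oxt, Avp, Pmch, Trh and Nkx2-1. Their summed level ran from 54.8 to 8260 CPM with a median of 1815 CPM. In 12 libraries the sum was more than 5 times below that median, at 54.8 to 208 CPM. In 13 libraries the sum of striatum or cortex markers exceeded 5 times its median, or that of pituitary markers exceeded 1000 CPM, and 7 libraries were in both sets. Of the RYGB and sham groups, the 13 libraries held RYGB replicate 6 and sham replicates 2, 6 and 10. Both sets were defined after the data were examined. In bulk tissue, fewer cells of a type and less RNA per cell cannot be told apart.

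RYGB vs. sham asked what surgery changes in hypothalamic RNA. No channel gene passed the test. Differences are log2 fold changes from edgeR's quasi-likelihood test with a term for batch, and a gene passed at a Benjamini-Hochberg adjusted p under 0.05 over 21871 genes. Of the 39 members, 0 passed, beside 13% of all genes, and 0 when an absolute log2 fold change over 1, the threshold of the study, was also asked for, beside 2.37%. At an unadjusted p under 0.05 there were 6 members, beside 30.0% of all genes, and DESeq2 called 0 members, beside 15.4% of all genes. The 6 at an unadjusted p under 0.05 were Scn7a, Scn8a and Cacng4, with log2 fold changes above 0, and Scn3b, Scn4b and Cacng8, with values below 0.

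The roles lay on different sides of 0. All 10 sodium pore genes had log2 fold changes above 0, from 0.23 to 1.44 with a median of 0.46, while the median of all genes tested was -0.02. Of the 4 sodium beta genes, 3 lay below 0 (median -0.48). The 4 L-type pore genes (median -0.18) and the 4 calcium beta genes (median -0.20) lay below 0, and so did 6 of the 7 gamma genes (median -0.10). The P/Q-, N- and R-type genes had a median of 0.04, the T-type genes of 0.13 and the alpha2delta genes of -0.17. Compared with saline in place of sham, 0 members passed, beside 0.00457% of all genes. Sham vs. saline, which uses the same sham libraries, had all 10 sodium pore genes below 0 (median -0.24).

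**Figure D2:**
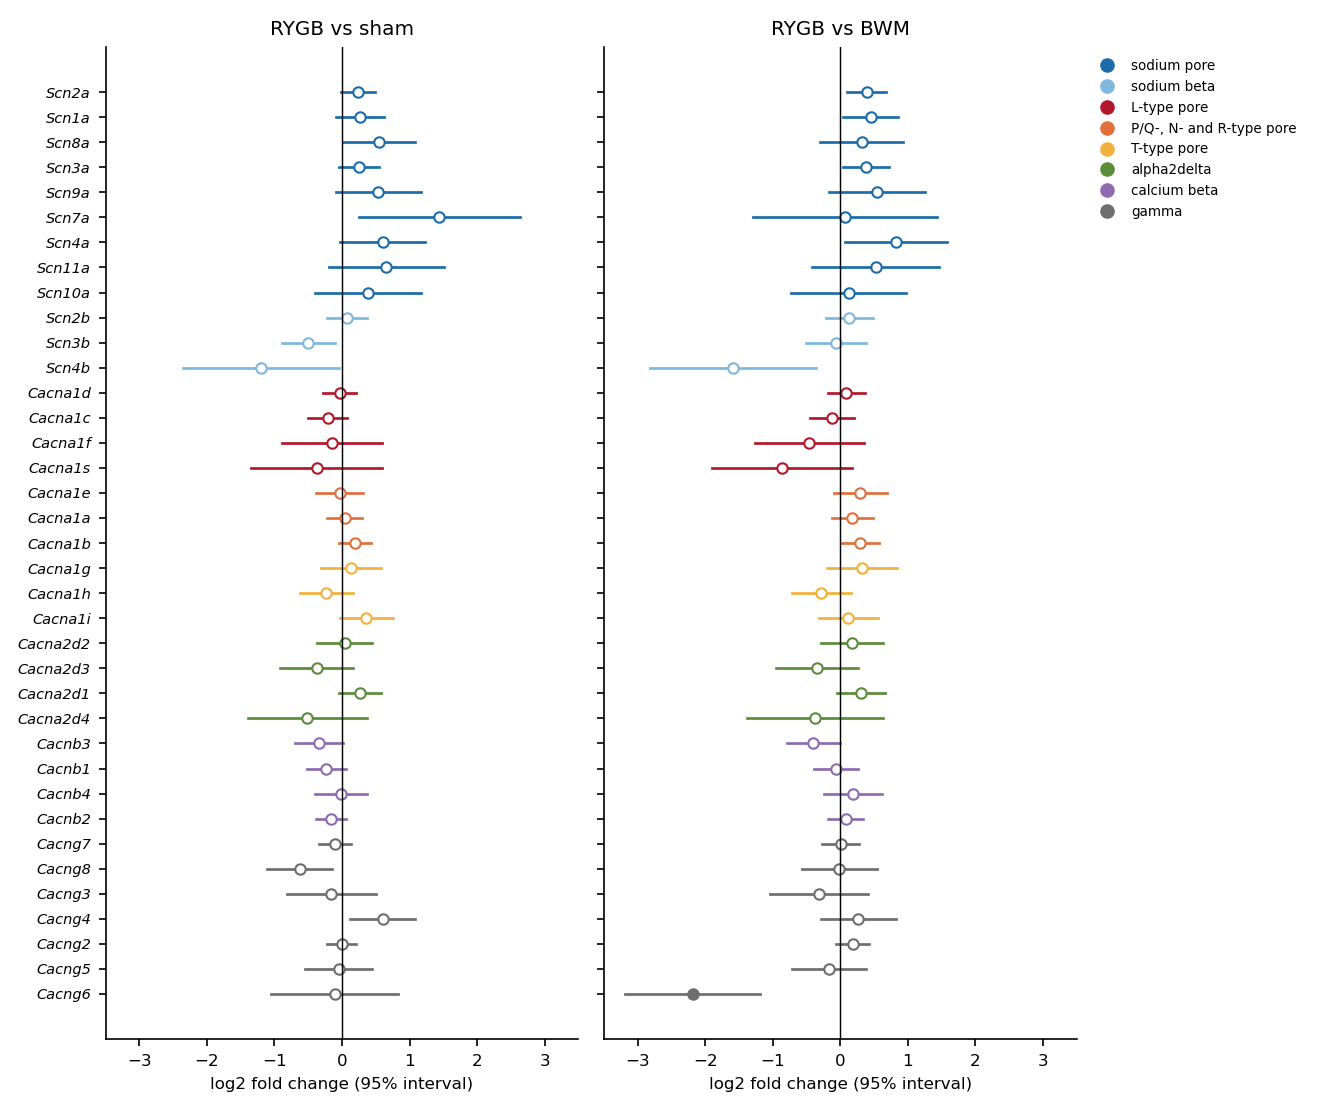
Log2 fold change of 37 of the 39 tested channel genes in RYGB vs. sham and RYGB vs. BWM. Circles are estimates, lines 95% intervals and colours roles, and a filled circle marks an adjusted p under 0.05, which only Cacng6 in RYGB vs. BWM reached (-2.18). The 9 sodium pore genes drawn lie above 0 in both comparisons, which share the RYGB libraries.

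Scn7a had the largest log2 fold change of the 39. It encodes an atypical channel that responds to extracellular sodium and is known from glia of the brain regions that sense salt (chr3:52775779-52877365, minus strand). Its level ran from 1.22 to 79.9 CPM (median 15.3) in RYGB-treated animals and from 0.725 to 26.7 CPM (median 7.16) in sham-treated animals. The groups overlapped over most of the sham range. The log2 fold change was 1.44 (SE 0.60, 95% interval 0.25 to 2.64, adjusted p = 0.0925, edgeR).

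Pituitary marker sums were high in the libraries with most Scn7a. The 3 highest libraries, RYGB replicate 9 (79.9 CPM), BWM replicate 7 (73.5 CPM) and RYGB replicate 14 (61.2 CPM), had pituitary marker sums of 442, 1148 and 512 CPM, against a median of 10.5 CPM over all libraries. BWM replicate 1 had the lowest Scn7a level (0.259 CPM) and a pituitary sum of 1.14 CPM. Of 9 pituitary markers tested, 0 passed in RYGB vs. sham and 6 lay above 0. Their sum ran from 2.30 to 512 CPM after RYGB and from 2.74 to 475 CPM after sham. Prl, which encodes prolactin, was at 0 in 7 of 14 RYGB and 8 of 11 sham libraries, and Gh1, growth hormone, in 3 and 5. In RYGB libraries Cga reached 380 CPM and Tshb 129 CPM, while Gh1 reached 9.55 CPM and Prl 2.33 CPM. Marker sums of surrounding tissues (pituitary, choroid plexus and meninges) were also used as covariates. With them the log2 fold change of Scn7a was 0.25 (adjusted p = 0.724, edgeR). The part of pituitary tissue in the difference was not tested.

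Scn8a encodes the main sodium pore of the axon initial segment (chr7:142575629-142683659, plus strand). It had 5.14 to 85.3 CPM after RYGB (median 61.3) and 11.1 to 78.8 CPM after sham (median 23.4). In batch A the ranges overlapped, at 5.14 to 85.3 CPM for 11 RYGB libraries and 23.8 to 78.8 CPM for 5 sham libraries. In batch B they nearly touched, at 23.7 to 40.4 CPM for 3 RYGB libraries and 11.1 to 23.4 CPM for 6 sham libraries. How many of all genes part so few libraries in this way was not counted. The log2 fold change was 0.54 (SE 0.27, adjusted p = 0.158, edgeR). Without RYGB replicate 11 it was 0.64 (adjusted p = 0.0400, edgeR), the 1 pass in 25 fits that each left out a single library. Within batch A it was 0.19 (adjusted p = 0.796) and within batch B 1.09 (adjusted p = 0.0475). With marker sums of surrounding tissues as covariates, which did not include striatum or cortex markers, it was 0.96 (adjusted p = 0.00598, edgeR). With these covariates 6 members passed as higher, Cacna1i, Cacng4, Scn1a, Scn2a, Scn2b and Scn8a, beside 9.60% of all genes higher.

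Cacng4, an accessory subunit of AMPA receptors (chr10:95954160-96015484, minus strand), ran from 5.34 to 21.2 CPM after RYGB (median 14.4) and from 4.02 to 23.5 CPM after sham (median 7.90). The ranges overlapped. The log2 fold change was 0.60 (SE 0.24, adjusted p = 0.0835, edgeR), with 0.32 (adjusted p = 0.627) within batch A and 1.14 (adjusted p = 0.0073) within batch B. In batch B alone 4 members passed as higher after RYGB, Cacna1b, Cacng4, Scn4a and Scn8a, beside 6.25% of genes higher. The difference of the RYGB effect between the batches was tested for each member, and the smallest adjusted p was 0.267 (Cacna1a, edgeR). In that fit over all libraries none of these 4 passed in batch B, with adjusted p of 0.151 for Cacna1b, 0.091 for Cacng4, 0.088 for Scn4a and 0.143 for Scn8a (edgeR). In batch A the same fit called 2 members lower, Cacng8 with a log2 fold change of -1.04 (adjusted p = 0.0225) and Scn3b with -0.84 (adjusted p = 0.0244, edgeR), which did not pass in the fit to batch A alone. The log2 fold changes of 26 of 39 members had the same sign in both batches.

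Cacng8 and Scn3b had the smallest p in RYGB vs. sham. Cacng8, an accessory subunit of AMPA receptors in forebrain (chr1:64330106-64350338, minus strand), ran from 24.2 to 42.8 CPM after RYGB (median 32.7) and from 20.9 to 179 CPM after sham (median 36.6). Scn3b, a sodium beta subunit (chr8:44136413-44159011, plus strand), ran from 103 to 212 CPM after RYGB (median 172) and from 107 to 828.8 CPM after sham (median 173). Sham replicate 2 held the highest value of both genes, and the other sham libraries reached 65.6 CPM for Cacng8 and 257 CPM for Scn3b. The log2 fold changes were -0.63 (SE 0.24, adjusted p = 0.0686) and -0.50 (SE 0.20, adjusted p = 0.0765, edgeR).

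Sham replicate 2 had 4442 CPM of cortex markers, where the median was 246 CPM, and 61.6 CPM of hypothalamus markers. Without it, the log2 fold change of Cacng8 was -0.17. Without sham replicate 3 in its place, Cacng8 was at -0.70 (adjusted p = 0.0473, edgeR), the 1 pass in 25 fits that each left out a single library. Without the 13 libraries high in striatum, cortex or pituitary markers, Cacng8 was at -0.10 and Scn3b at 0.11.

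Scn4b encodes a sodium beta subunit linked to the resurgent current of fast-firing neurons (chr8:49441106-49456279, plus strand). It ran from 6.23 to 132 CPM after RYGB (median 27.4), from 9.33 to 347 CPM after sham (median 46.9) and from 12.7 to 513 CPM in BWM animals (median 22.0). The high end was made by few libraries. Sham replicates 10, 6 and 3 had 347, 226 and 188 CPM, BWM replicate 1 had 513 CPM, and RYGB replicate 6 had 132 CPM. The log2 fold change of RYGB vs. sham was -1.20 (SE 0.58, 95% interval -2.36 to -0.04, adjusted p = 0.151, edgeR), and that of RYGB vs. saline 0.08. In 25 fits that each left out a single library, RYGB vs. sham ran from -1.57 to -0.85. Scn4b passed in 1 of them, without RYGB replicate 6 (-1.57, adjusted p = 0.0468, edgeR).

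Striatum markers moved with Scn4b. The list held 6 genes, among them Drd1, Drd2, Ppp1r1b, Adora2a and Rgs9, and none of the 6 was at 0 in any library. All 6 lay below 0 in RYGB vs. sham (median -1.25), and 0 passed the test. Their sum ran from 144 to 475 CPM after RYGB, from 118 to 3728 CPM after sham and from 133 to 4138 CPM in BWM animals. In the 7 libraries with a striatum sum over 5 times the median, Scn4b ran from 161 to 513 CPM (median 226). In the other 58 libraries it ran from 6.23 to 188 CPM (median 34.5). Sham replicate 3, with 188 CPM of Scn4b, had only 118 CPM of striatum markers. RYGB replicate 6 had a striatum sum of 242 CPM and 2804 CPM of cortex markers. The part of striatal tissue in these levels was not tested.

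**Figure D3:**
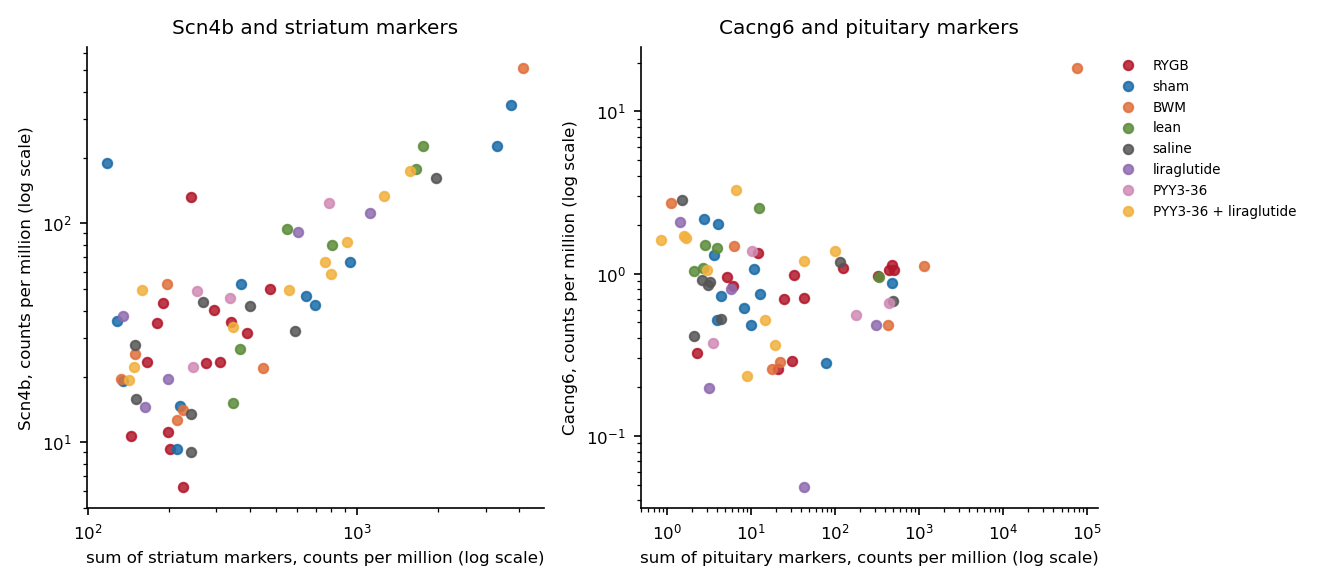
Scn4b against the sum of 6 striatum markers, and Cacng6 against the sum of 9 pituitary markers, all in CPM on log axes, each point 1 of 65 libraries coloured by group. Scn4b was at 161 to 513 CPM in the 7 libraries of highest striatum sum. Cacng6 was at 18.5 CPM in the library with a pituitary sum of 76902 CPM and at most at 3.25 CPM elsewhere.

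Genes whose products bind or anchor these channels were listed as partners, 19 tested for sodium and 26 for calcium channels. In RYGB vs. sham, 3 calcium channel partners were higher and 1 was lower, and of the sodium channel partners 2 were lower and 0 higher, beside 13% of all genes in either direction. Among the calcium channel partners that were higher, Camk2g, a calcium-dependent kinase subunit, had a log2 fold change of 0.46 (SE 0.11, adjusted p = 0.0049, edgeR), and Akap7, an anchor of protein kinase A, 0.50 (SE 0.14, adjusted p = 0.0155, edgeR). Rem2, a small GTPase that inhibits calcium channels, had a log2 fold change of -1.36 (SE 0.36, adjusted p = 0.0105, edgeR). Among the sodium channel partners that were lower was Calm2 (-0.40, adjusted p = 0.0443, edgeR), which encodes calmodulin. In the other comparisons between groups 0 partners passed.

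BWM vs. sham asked what food restriction to a weight course like that after RYGB changes. Of 39 members, 0 passed, beside 0.320% of all genes (0.274% with the fold threshold), with 2 at an unadjusted p under 0.05 (Cacng6 and Cacng8, edgeR), beside 12.3%. DESeq2 called 1, Cacng6, beside 1.08% of all genes. The median log2 fold change of the members was -0.09, and 5 of the 10 sodium pore genes lay above 0. Cacng6 had a log2 fold change of 2.08 (SE 0.56, adjusted p = 0.0774, edgeR), which was 0.32 without BWM replicate 5.

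RYGB vs. BWM set surgery against food restriction meant to give a similar weight course. The paper states as a limitation that BWM animals ended the observation period heavier than RYGB animals. Cacng6 was the only member that passed, and it was lower after RYGB, beside 0.343% of all genes in either direction and 0.334% lower. It also passed the fold threshold, beside 0.274% of all genes. At an unadjusted p under 0.05 there were 7 members, beside 12.6% of all genes, 5 of them above 0 (Scn1a, Scn2a, Scn3a, Scn4a and Cacna1b) and 2 below 0 (Cacng6 and Scn4b). All 10 sodium pore genes lay above 0, with a median of 0.39, against -0.03 for all genes. All genes with the longest exons (5054 bases and more) had a median of 0.05. Spearman's rho between log2 fold change and exon length was 0.19 across all genes and 0.45 across the members. The part of exon length in the sodium pore values was not tested.

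Cacng6 encodes a gamma subunit known from muscle calcium channels (chr1:64307684-64322124, minus strand). In the BWM libraries 1 to 7 it had 2.72, 1.49, 0.260, 0.284, 18.5, 0.483 and 1.12 CPM. In the 14 RYGB libraries it ran from 0.257 to 1.33 CPM, and in the 11 sham libraries from 0.280 to 2.18 CPM. BWM replicate 5 stood far above the other libraries, and 4 of the other BWM libraries lay within the RYGB range. The log2 fold change was -2.18 (SE 0.50, 95% interval -3.18 to -1.19, adjusted p = 0.0260, edgeR). Without BWM replicate 5 it was -0.42 (adjusted p = 0.741), and without RYGB replicate 6 it was -2.09 (adjusted p = 0.0517, edgeR).

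BWM replicate 5 had 76902 CPM of pituitary markers, of which Gh1 alone made 62724 CPM. BWM replicate 7, the next highest with 1148 CPM, had 1.12 CPM of Cacng6. Of the 9 pituitary markers, 5 passed as lower in RYGB vs. BWM, and their sum ran from 1.14 to 76902 CPM in BWM animals. Fshb was at 0 in 4 of 7 BWM libraries, and Prl in 3. The part of pituitary tissue in the Cacng6 result was not tested.

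Scn2a had 133 to 246 CPM after RYGB (median 195), 116 to 242 CPM in BWM animals (median 135) and 121 to 235 CPM after sham (median 152). The ranges overlapped, and the log2 fold change of RYGB vs. BWM was 0.39 (SE 0.14, adjusted p = 0.278, edgeR). Scn4b had a log2 fold change of -1.58 (SE 0.61, adjusted p = 0.303, edgeR), and of 0.36 without BWM replicate 1, its highest library.

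Lean vs. sham compared lean with obese controls. Of 39 members, 0 passed with edgeR, beside 0% of all genes, and 0 with DESeq2, beside 0.0183%. Scn8a, Cacna1i and Scn1a, 3 members, had an unadjusted p under 0.05, all with log2 fold changes above 0, beside 12.2% of all genes. Scn8a had 21.6 to 96.9 CPM in lean animals (median 76.3). All lean animals were in batch A, where the sham libraries had 23.8 to 78.8 CPM. The log2 fold change of Scn8a was 0.80 (SE 0.34, adjusted p = 0.334, edgeR).

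The hormone treatments were compared with saline. In PYY3-36 vs. saline 0 of 39 members passed with edgeR, beside 0% of all genes, and 0 with DESeq2, beside 0.0183%, while 1 had an unadjusted p under 0.05, beside 7.54%. In liraglutide vs. saline 0 passed with edgeR, beside 0%, and 0 with DESeq2, beside 0.0137%, and 0 had an unadjusted p under 0.05, beside 2.08%. In PYY3-36 + liraglutide vs. saline 0 passed with edgeR, beside 0.00457%, and 0 with DESeq2, beside 0.0412%, and 0 had an unadjusted p under 0.05, beside 2.53%. In this last comparison 32 of the 39 members lay above 0, with a median of 0.09, where the median of all genes was -0.02. All genes with the longest exons (5054 bases and more), a class that held 25 of the members, had a median of 0.05. Spearman's rho between log2 fold change and exon length was 0.25 across all genes and 0.16 across the members. The part of exon length in the members' values was not tested.

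Cacnb3, which encodes the most abundant calcium beta subunit here, was the member with an unadjusted p under 0.05 (chr7:140311120-140324902, plus strand). It had 109 to 145 CPM under PYY3-36, 108 to 174 CPM under liraglutide and 95.9 to 209 CPM under both. In the saline libraries 1 to 3, of batch A, it had 109, 104 and 124 CPM, and in libraries 4 to 8, of batch B, 342, 192, 115, 263 and 199 CPM. Saline replicate 4 was the highest of all 65 libraries, and had 2542 CPM of cortex markers. The log2 fold changes were -0.59 (SE 0.27, adjusted p = 0.652) under PYY3-36, -0.43 (adjusted p = 1.0) under liraglutide and -0.35 (adjusted p = 1.0, edgeR) under both, 3 comparisons that share the saline libraries. Without saline replicate 4 they were -0.39, -0.23 and -0.18.

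Set against sham in place of saline, the combination had 2 higher members of 39, beside 6.66% of all genes higher, and 0 lower. These were Cacng4 with a log2 fold change of 0.86 (adjusted p = 0.0185) and Scn8a with 0.85 (adjusted p = 0.0347, edgeR). Cacng4 had 7.14 to 24.8 CPM under the combination (median 17.2) and Scn8a 13.8 to 79.3 CPM (median 52.1), both overlapping with sham. In sham vs. saline 0 members passed with edgeR, beside 0.0137% of all genes (0.00914% with the fold threshold), and 0 with DESeq2, beside 0.128%, and 0 had an unadjusted p under 0.05, beside 12.9%. Scn4b had a log2 fold change of 1.28 there (SE 0.67, adjusted p = 0.413, edgeR).

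More channel genes passed between the batches than in any comparison between groups. Batch B vs. batch A was taken from the same model, with group as the other term. Lower levels in batch B were found for 13 of 39 members (33.3%), beside 21.4% of all genes lower and 40.7% in either direction, and 0 members were higher, beside 19.3%. With the fold threshold, Cacna1d and Scn8a passed, 2 members, beside 5.0% of all genes. Pore and auxiliary genes parted. All 20 pore genes lay below 0 (median -0.61) and 12 of them passed, while of 19 auxiliary genes only Cacng2 passed (median -0.01). All 3 P/Q-, N- and R-type genes, all 3 T-type genes, 3 of 4 L-type genes and 3 of 10 sodium pore genes passed.

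Cacna1d (chr16:6110294-6405022, minus strand) ran from 32.8 to 132 CPM in batch A (median 101) and from 35.8 to 64.2 CPM in batch B (median 43.4). RYGB replicate 11 (32.8 CPM) was the only library of batch A that did not lie above batch B. The log2 fold change was -1.06 (SE 0.10, 95% interval -1.25 to -0.87, edgeR). It was -0.98 in RYGB, -1.03 in sham, -1.22 in saline and -1.04 in PYY3-36 + liraglutide animals, the groups that had both batches, and passed in all 4. In batch A the level was 97.4 ± 27.6 CPM for RYGB (n = 11) and 100.0 ± 17.0 CPM for sham (SD, n = 5). In batch B it was 49.3 ± 6.34 CPM for RYGB (n = 3) and 48.9 ± 8.13 CPM for sham (SD, n = 6). Within a batch the surgical groups differed by less than 1 SD.

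**Figure D4:**
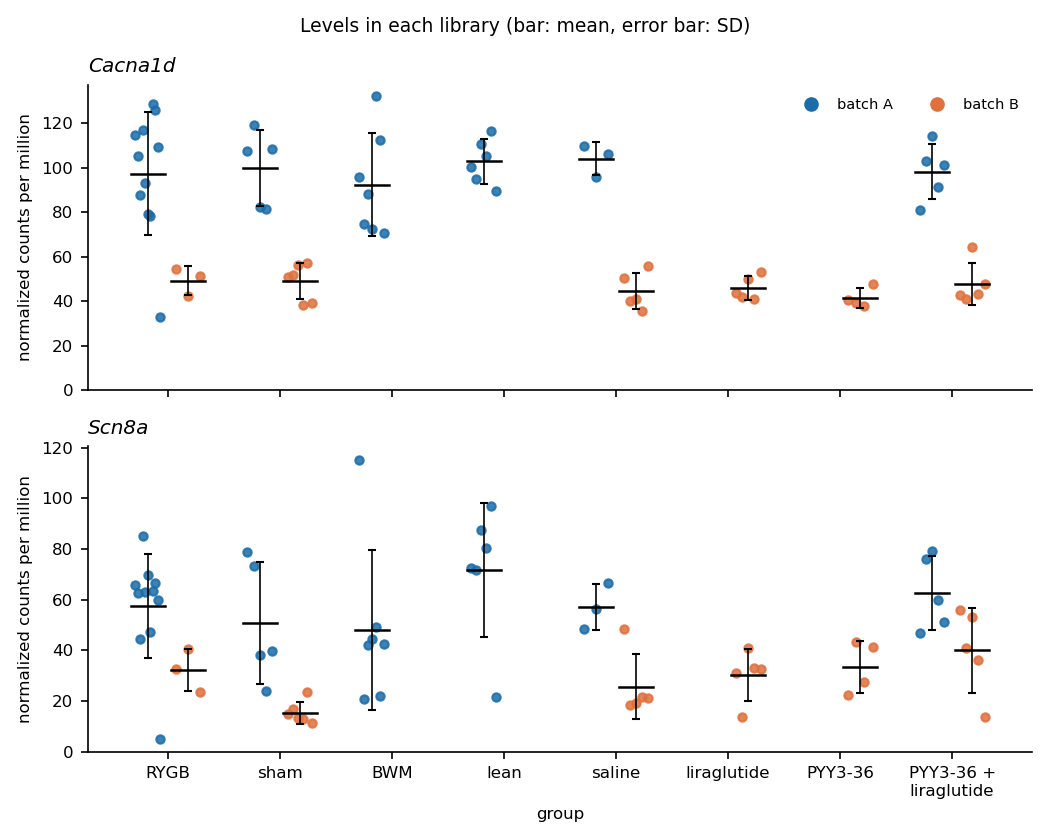
CPM of Cacna1d and Scn8a in each of the 65 libraries by group and batch. Horizontal bars are means and error bars SDs of the libraries of 1 group and batch. Cacna1d was at 70.9 to 132 CPM in batch A apart from RYGB replicate 11 (32.8 CPM), and at 35.8 to 64.2 CPM in batch B.

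Scn8a fell by a similar size, with a log2 fold change of -1.10 (SE 0.21, edgeR). It had 5.14 to 115 CPM in batch A (median 59.9) and 11.1 to 55.9 CPM in batch B (median 25.6), and the ranges overlapped. The T-type genes Cacna1i, Cacna1g and Cacna1h, which serve burst firing, had log2 fold changes of -0.98, -0.93 and -0.72. Cacna1a, Cacna1b and Cacna1e, the pores that serve transmitter release, had -0.75, -0.70 and -0.53. The others were -0.90 for Cacna1f, -0.85 for Scn9a, -0.47 for Cacna1c, -0.36 for Scn1a (adjusted p = 0.0331) and -0.22 for Cacng2 (adjusted p = 0.0292, edgeR). All 13 genes lay below 0 in each of the 4 groups with both batches. The batch estimate that picked these genes came from the same 4 groups, so the like signs are not separate support. Some values were near 0, such as Cacng2 with -0.02 (SE 0.17) in RYGB and -0.06 (SE 0.19) in saline animals. Cacnb3 went the other way, with a log2 fold change of 0.32 (adjusted p = 0.0720, edgeR).

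Genes with long exons were lower in batch B across the whole table. Genes were divided by combined exon length into 5 classes of like size. In the longest class (5054 bases and more) 36.8% were lower in batch B, against 12.5% in the shortest class. The longest class held 25 of the 39 members, of which 12 were lower. Spearman's rho between log2 fold change and exon length was -0.26 across 21871 genes and -0.51 across the 39 members, as a description across genes that share libraries. The median exon length was 8617 bases for the pore genes and 3711 bases for the auxiliary genes. Of 81 ribosomal protein genes, 81 lay above 0 in batch B and 60 passed. The labels give library fragment sizes of 285 bp for batch A and 335 bp for batch B. Fragment size and experimental period cannot be told apart in this design.

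With an offset for gene length in the model, 11 members were lower in batch B and 2, Cacna2d1 and Cacnb3, were higher, beside 19% of all genes lower and 20.2% higher. Scn1a, Cacna1c, Cacna1e and Cacng2 no longer passed, while Cacng4 and Cacng8 passed as lower. In RYGB vs. sham, rho with length was 0.23 across all genes and 0.37 across the members. In sham vs. saline it was -0.22 and -0.07.

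**Figure D5:**
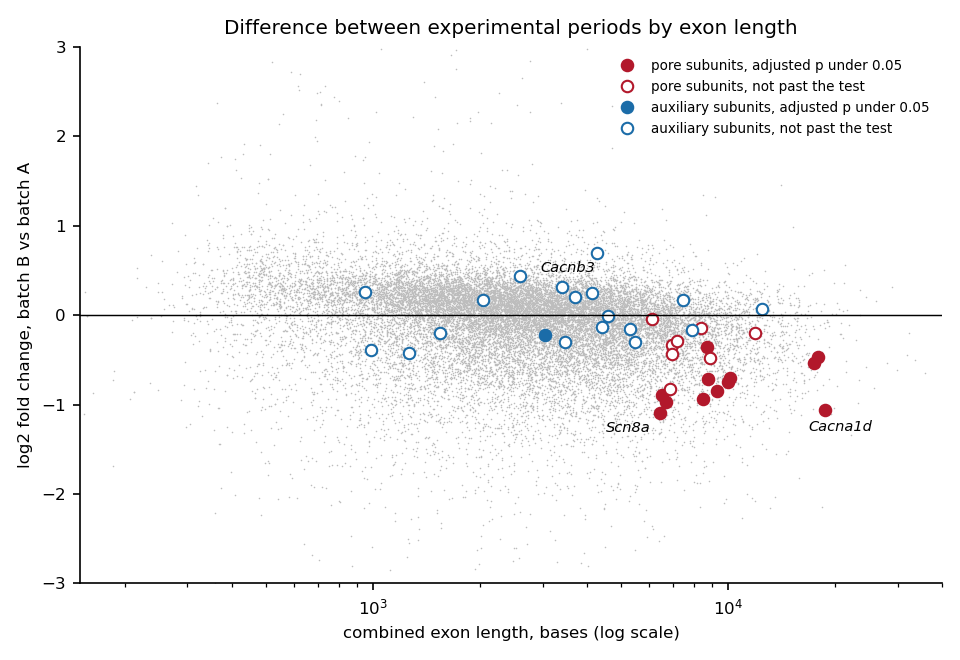
Log2 fold change of batch B vs. batch A against combined exon length in bases (log axis) for all genes tested in grey, pore genes in red and auxiliary genes in blue. Filled circles have an adjusted p under 0.05, and 111 genes lie outside the axes. The 20 pore genes are all below 0, and 12 are filled.

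Of the 26 calcium channel partners 4 were lower in batch B and 0 higher, and of the 19 sodium channel partners 5 were lower and 3 higher, beside 21.4% of all genes lower and 19.3% higher. Rimbp2, which ties calcium channels to the release site, had a log2 fold change of -0.77 (SE 0.10). Sptbn4, a spectrin of the axon initial segment, had -0.53, and Unc79, of the sodium leak channel complex, -0.54. Calm2 had 0.55 (SE 0.11).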

How the data were processed

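Hypothalamic RNA of 65 rats was sequenced by the authors from stranded, poly-A selected libraries with 15 PCR cycles and 75 nt reads. Per the labels and the methods of the study, the authors used bcl2fastq 2.20.0.422, cutadapt and STAR 2.7.2b on the build Rnor_6.0, and counted reads on RefSeq exons by strand with featureCounts 1.6.4. The deposited values are estimated counts, since the authors split reads that mapped to several places or overlapped several genes, and 30.3% of nonzero values were not whole (tolerance 1e-06). Genes that overlap a member on the same strand, such as Mir935 in Cacng8, could share its reads.

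Counts were rounded and tested with edgeR 4.0.16 (R 4.3.3), using filterByExpr (minimum count 10, minimum total 15), TMM scaling and the robust quasi-likelihood fit with group and batch as terms over all 65 libraries. Of 33452 genes with a count, 21871 were tested. Total counts ran from 20041010 to 36539941 (median 27379945). Groups were taken from the labels. Each library is 1 animal, and no pair of libraries in a group agreed within sampling noise. Alternatives were DESeq2 1.42.0, other scaling, filters, groups in the fit, batches, control groups, a replicate block, a length offset, surrounding-tissue covariates, leaving out each library, and 2 settings chosen after seeing the data. Scripts were tested on simulated data.

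The members and lists were chosen with earlier results of these data known. Values by group are given for members that passed in any comparison, for the member with the smallest p where none did, for those with an unadjusted p under 0.05, and for the highest member of each role. Of each partner list, at most the 4 with the smallest adjusted p are given by value. CPM used TMM library sizes. The rat promoter windows come from RefSeq tables of GRCr8. Some members and listed genes entered the fits and counts but are not reported here by value.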

Additional observations from a re-analysis of the deposited data

Results flagged for a closer look

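In groups of 4 to 10 animals, a library was set apart where its gap to the nearest other library exceeded Dixon's critical share of the group's range. For independent values from a normal distribution, chance sets apart about 1 in 20 groups. CPM were not transformed, members share libraries and some groups pool both batches, so that rate need not hold here. Of 138 combinations of member and group, 27 were set apart, in 13 libraries, and the RYGB and sham groups were too large for this rule. BWM replicate 1, which had 4138 CPM of striatum markers, held 10 of the 27. It had 513 CPM of Scn4b, 365 CPM of Cacna1e, 340.2 CPM of Cacnb3 and 289 CPM of Cacna1h. It had 120.5 CPM of Cacna1c, 115 CPM of Scn8a, 110.2 CPM of Scn1a, 99.99 CPM of Cacna1i and 89.0 CPM of Cacng8, all above its group, and 31.8 CPM of Cacna1g, below it.

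Cacng6 was high in BWM replicate 5 (18.5 CPM), PYY3-36 + liraglutide replicate 9 (3.25 CPM), saline replicate 4 (2.85 CPM) and lean replicate 3 (2.54 CPM). Cacna1f was high in BWM replicate 5 (3.05 CPM) and liraglutide replicate 1 (1.12 CPM). Scn7a was high in saline replicate 1 (54.7 CPM), liraglutide replicate 1 (37.2 CPM) and PYY3-36 replicate 1 (34.7 CPM). Scn4b was high in saline replicate 8 (161 CPM). Cacna2d2 was high in saline replicate 3 (353 CPM) and liraglutide replicate 3 (258 CPM), Scn1a in saline replicate 3 (126 CPM) and Scn2a in saline replicate 4 (281 CPM). Cacna1e was low in lean replicate 6 (153 CPM) and liraglutide replicate 2 (115 CPM), and Scn8a was low in lean replicate 6 (21.6 CPM).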

How the results depend on the processing

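The number of channel genes that passed in RYGB vs. sham was 0, and rose to 3 without the batch term (beside 25.5% of all genes), 1 with only the groups compared in the fit (13.6%), 4 within batch B (11.8%), 2 with the gene length offset (11.7%) and 6 with surrounding-tissue covariates (17%). It was 1 in BWM vs. sham with DESeq2 (1.08%) and without the batch term (9.98%), 2 in lean vs. sham without the batch term (10.7%), and 2 for PYY3-36 + liraglutide against sham in place of saline (14.7%). In RYGB vs. BWM it was 0 in place of 1 with only the groups compared, within batch A, with surrounding-tissue covariates and without libraries high in striatum, cortex or pituitary markers, and 2 without libraries low in hypothalamus markers (0.555%). The settings that leave out libraries by their markers were chosen after seeing the data. Under them 0 members passed in RYGB vs. sham (beside 10.6% and 5.36% of all genes), and 17 (high in other tissues left out, beside 42.3%) and 14 (low in hypothalamus left out, beside 40.0%) passed between batches.

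Leaving out single libraries gave 0 to 3 members in RYGB vs. sham, with 3 without RYGB replicate 6 or 11, 2 without sham replicate 3 and 1 without sham replicate 1. It gave 0 to 2 in BWM vs. sham, 0 to 1 in RYGB vs. BWM, 0 in lean vs. sham, the 3 hormone comparisons and sham vs. saline, and 11 to 15 between batches. The share of all genes that passed is not given for these fits. A change in these counts can therefore not be read as particular to the channel genes. Without single libraries, Scn1a lost its call between batches in 6 fits (adjusted p up to 0.0833) and Cacng2 in 9 (adjusted p up to 0.0796, edgeR).

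Some single genes changed sign. Without the libraries high in other-tissue markers, the log2 fold change of Cacng6, BWM vs sham, was -0.0496 and in RYGB vs. BWM it was 0.38. The others were Scn4b in RYGB vs. BWM without those libraries or those low in hypothalamus markers (0.43 in both) and without BWM replicate 1 (-1.96 to 0.36 over single libraries left out), Scn4b against saline in RYGB vs. sham (0.0835), Scn7a in BWM vs. sham with surrounding-tissue covariates (-0.61) and Cacnb3 under PYY3-36 + liraglutide within batch A (0.0443). The cause was not tested.

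With the replicate number as a block, 6 members passed between batches (5 lower and 1 higher, beside 14.1% of all genes) and 0 in RYGB vs. BWM (beside 0%). The median correlation of 171 pairs with the same number in different groups was 0.009, and 55 pairs exceeded 0.1. These pairs also joined animals of different batches, so the median cannot tell whether some samples were paired by number.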
